A study of Bos taurus with 38 samples.

Results

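In newborn beef calves, 4 of 38 muscle biopsies stood apart in the expression of NAMPT (ENSBTAG00000015509), the rate-limiting enzyme of the nicotinamide salvage route to NAD, which is also released from cells. They were chosen by that measurement: a calf belongs to the high-NAMPT class if its NAMPT level was 200 CPM or more, whatever its treatment group, and the other 34 calves are the comparison. CPM is a gene's count scaled to a common library size, with library sizes adjusted by TMM (trimmed mean of M values). NAMPT was at 634.9 CPM in A2099, 628.2 in A2052, 619.2 in A2023 and 289.3 in A2100. The nearest calf outside the class, A2074, was at 130.0 CPM and the lowest calf, A2035, at 47.8 CPM, so no calf lay between 130.0 and 289.3 CPM. NAMPT set the class, so its own levels are given with no test, and genes that vary with NAMPT from calf to calf are bound to differ between the classes.

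The biopsies came from Longissimus dorsi muscle, taken 12 to 48 h after birth from calves of Angus-cross cows, and each library is a different calf. Control cows (CTR, 10 calves) were given no Se-yeast, whereas TR1 (9 calves), TR2 (10 calves) and TR3 (9 calves) cows were dosed by bolus with Se-yeast at 105 mg Se per week for 13 weeks, in the first, the second and the third trimester of pregnancy in that order. All cows, controls included, could eat a mineral mix holding 120 mg/kg Se as sodium selenite. The deposited table gives reads per gene for each calf, 12921000 to 17472000 in total. A biopsy mixes muscle fibres with matrix, vessel, nerve and blood cells, so less RNA of a cell type per cell cannot be told apart from fewer cells of it.

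As background, muscle is the main protein store of the body. Under fasting, illness or high cortisol, the glucocorticoid receptor and the FoxO transcription factors switch on genes that break down muscle protein (the ubiquitin ligases FBXO32 and TRIM63), recycle cell parts by autophagy, release glutamine (GLUL) and turn fuel use from glucose to fat (PDK4, PNPLA2, LPIN1). A newborn calf meets a cortisol surge and its first fast at birth, and muscle at that age is still laying down matrix and replacing developmental myosins with adult ones.

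The high-NAMPT calves came from 2 of the 4 treatment groups: 3 of 10 TR2 calves and 1 of 9 TR1 calves (A2052) belonged to the class, and 0 of 10 CTR and 0 of 9 TR3 calves did. By group, the median NAMPT level was lowest among CTR calves (72.5 CPM), then TR1 (83.7 CPM) and TR3 (86.9 CPM), and highest among TR2 calves (116.5 CPM). Of the 4 calves, 3 were male and 1 female, against 21 males and 13 females in the others (Fisher's exact test, two-sided p = 1). Dam age was 5 to 8 years in the class and 5 to 9 years in the others (exact permutation test over 73815 splits, two-sided p = 1), and neither the total count (exact permutation p = 0.564) nor the number of genes with a count (exact permutation p = 0.13) nor the TMM factor (exact permutation p = 0.128) passed 0.05. The share of counts taken by the 10 most abundant genes was lower in the class, 16.3% to 21.3% against 19.3% to 25.9% (median 22.9%) in the others (exact permutation test, two-sided p = 0.00263, Benjamini-Hochberg p = 0.0131 over 5 measures). A2052 stood apart from all other libraries, with a TMM factor of 1.35 where all other calves lay between 0.887 and 1.16, the lowest top-10 share (16.3%) and a sum over 8 skeletal muscle markers of 38600 CPM, below the 62170 CPM of the lowest calf outside the class. For pathway lists and for genes named by rule, results that rest on A2052 are therefore given with and without it.

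**Figure D1:**
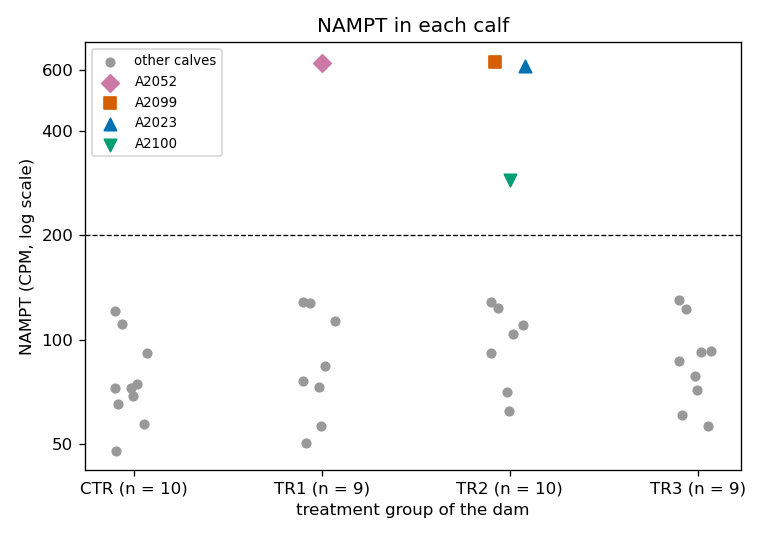
NAMPT level of each calf (CPM on a log scale) by treatment group of the dam. Grey points are calves under 200 CPM (dashed line), coloured symbols the 4 calves above it. The coloured symbols sit between 289 and 635 CPM in TR1 and TR2, and no grey point is above 130.0 CPM.

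The class differed from the other calves across a large part of the transcriptome. In edgeR's quasi-likelihood test with dam age, sex and treatment group as covariates, 2329 of 12963 genes were higher (18% of the genes tested) and 1935 were lower (14.9%) at a Benjamini-Hochberg adjusted p under 0.05, 32.9% in either direction. With plain library sizes instead of TMM, 3051 were higher and 1349 lower, so that 69.3% of calls were higher rather than 54.6%, and the median log2 fold change of all genes moved from 0.017 to 0.149. Of the 4264 calls, 3676 were also called under that scaling. For 234 genes (1.81%) all 4 calves lay above every other calf, and for 183 (1.41%) all 4 lay below, 3.22% together. Of the called genes, 451 were higher and 683 lower by at least 2-fold (log2 of 1), and 15 and 26 by at least 8-fold (log2 of 3). Without A2052 the calls were 1686 higher and 1244 lower. Among the 10 TR2 calves alone, 3 of the class against 7 others, 1102 genes were higher and 803 lower. Gene symbols were to hand for 2877 of the tested genes, those in the study's own lists of changed genes and regulators, of which 44.9% were called (21.8% higher, 23.1% lower), so counts over named genes are read against both shares. Named genes thus come partly from lists the study chose on these samples, and their counts are not independent evidence of a direction.

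**Figure D2:**
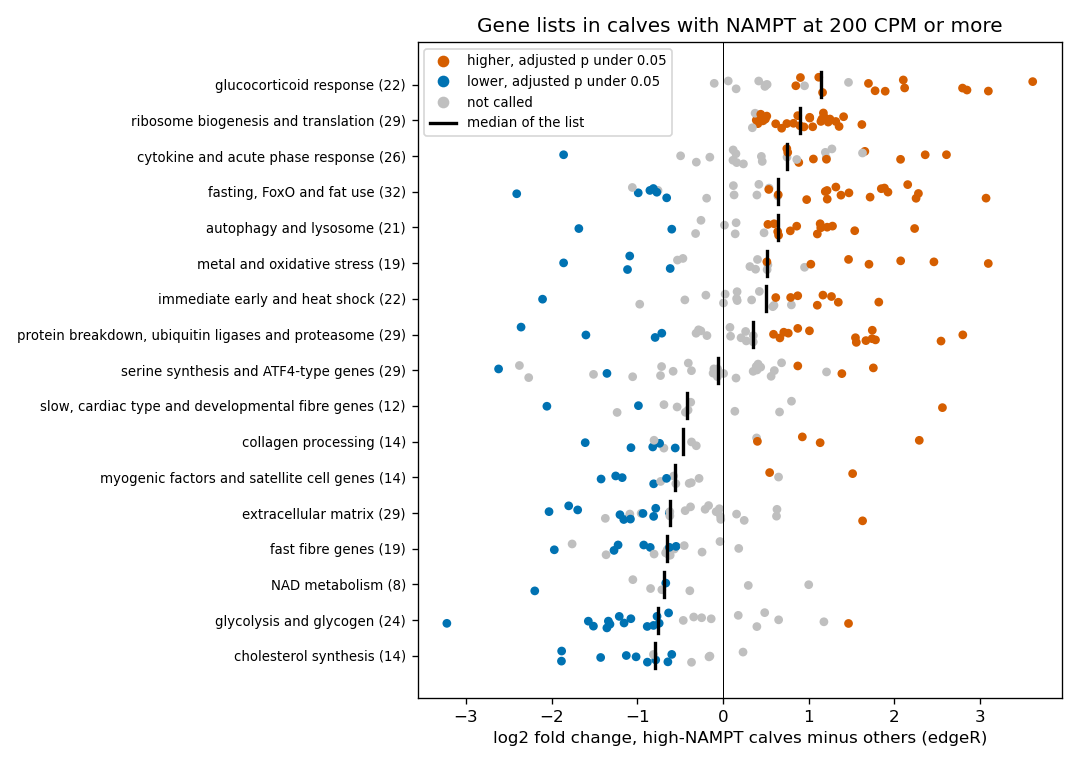
Log2 fold change of each gene (high-NAMPT calves minus the 34 others, edgeR) in 17 gene lists, with the number of genes tested in brackets. Orange and blue points were higher or lower at an adjusted p under 0.05, grey points were not called, and black bars are list medians, such as 1.14 for the glucocorticoid response and -0.80 for cholesterol synthesis (0.84 and -0.54 without A2052).

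Of 22 listed genes induced by glucocorticoids that were tested, 13 rose and 0 fell, with a median log2 fold change of 1.14. Per calf, the list's median log2 difference from the mean of the others was 1.73 in A2099, 1.94 in A2052 and 0.87 in A2023. In A2100 it was 0.77, inside the range of the others (-0.53 to 0.85). CEBPD, a transcription factor of the acute phase and glucocorticoid response, was at 151 CPM in A2099, 688 in A2052, 99.5 in A2023 and 101 in A2100. The 34 others ranged over 9.69 to 74.3 CPM (median 19.4). All 4 calves were above every other calf, and A2052 was more than 4 times as high as the next (log2 fold change 3.10 ± 0.32 SE, adjusted p = 8.64e-09). GLUL, glutamine synthetase, through which muscle exports nitrogen as glutamine, was at 4360.1 CPM in A2099, 4552 in A2052, 2039.9 in A2023 and 969.7 in A2100. Outside the class, values were 145 to 882 CPM (median 350.4). The groups did not overlap, with A2100 nearest to the others (2.85 ± 0.29 SE, adjusted p = 8.08e-09). AMPD3, AMP deaminase, had 21.7 CPM in A2099, 31.4 in A2052, 26.9 in A2023 and 39.8 in A2100, against 0.684 to 9.17 CPM (median 2.01) in the 34 others, again with no overlap (3.62 ± 0.45 SE, adjusted p = 2.21e-07). FKBP5, a chaperone that limits the receptor and is a standard readout of its activity, had 769.6 CPM in A2099, 629.8 in A2052, 461 in A2023 and 429.7 in A2100. The range of the others was 35.6 to 315 CPM (median 118). It too was above every other calf in all 4 (1.89 ± 0.40 SE, adjusted p = 0.000389).

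Other members of that list rose in fewer calves. KLF15, a glucocorticoid-induced regulator of amino acid use, was at 25.3 CPM in A2099, 151 in A2052, 9.40 in A2023 and 13.7 in A2100. Elsewhere it was at 2.81 to 19.0 CPM (median 6.78). Only A2052 and A2099 were above every other calf (2.10 ± 0.37 SE, adjusted p = 5.47e-05), and without A2052 the value was 0.78 with adjusted p = 0.181. Over all alternatives its adjusted p ran from 3.84e-08 to 0.188. ZBTB16 had 45.7 CPM in A2099, 52.7 in A2052, 7.43 in A2023 and 24.9 in A2100, against 3.28 to 20.6 CPM (median 9.88) in the 34 others, so that A2023 lay below the median of the others (1.70 ± 0.36 SE, adjusted p = 0.00048, and 0.98 with adjusted p = 0.131 without A2052). Its adjusted p ran from 1.75e-05 to 0.131 over all alternatives. SESN1, a sestrin that holds back mTORC1, was 304 CPM in A2099, 472 in A2052, 49.6 in A2023 and 38.7 in A2100, against 30.1 to 83.6 CPM (median 49.8) in the 34 others, high in A2099 and A2052 alone (2.12 ± 0.30 SE, adjusted p = 1.65e-06). TSC22D3 (GILZ), another standard glucocorticoid target, was at 219.6 CPM in A2099, 304 in A2052, 177 in A2023 and 196 in A2100. Other calves were at 122 to 328 CPM (median 175). All 4 values lay inside the range of the others and the gene was not called (0.15 ± 0.21 SE, adjusted p = 0.617), and neither was NR3C1, which encodes the receptor itself (-0.10 ± 0.15 SE, adjusted p = 0.63). Without A2052, 9 of the 22 rose and 0 fell (median 0.84), and within TR2 7 rose and 0 fell (median 0.87).

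Genes of fasting, FoxO signalling and fat use followed the same direction in part: 17 of 32 rose and 6 fell (median 0.64). Per calf, the list's median log2 difference from the mean of the others was 0.79 in A2099, 0.98 in A2052 and 0.44 in A2100. In A2023 it was -0.06, inside the range of the others (-0.23 to 0.27). LPIN1, a phosphatidate phosphatase and coactivator of fat oxidation, was at 264 CPM in A2099, 445 in A2052, 74.9 in A2023 and 95.7 in A2100. The 34 others ranged over 13.3 to 54.7 CPM (median 22.0). The groups did not overlap, and LPIN1 had one of the smallest p-values of all genes (3.07 ± 0.26 SE, adjusted p = 3.69e-10). PNPLA2, the triglyceride lipase ATGL, was at 369 CPM in A2099, 679 in A2052, 265 in A2023 and 328 in A2100, against 57.4 to 157 CPM (median 81.1) in the 34 others, also with no overlap (2.16 ± 0.20 SE, adjusted p = 1.75e-09). PDK4, which blocks pyruvate entry into mitochondria, was at 673 CPM in A2099, 4223 in A2052, 2301 in A2023 and 2173 in A2100. Outside the class, values were 57.2 to 1649.7 CPM (median 381). A2052, A2023 and A2100 exceeded every other calf, while A2099 was inside their range (2.25 ± 0.45 SE, adjusted p = 0.000254). EIF4EBP1, the brake on cap-dependent translation, was at 224 CPM in A2099, 477 in A2052, 201 in A2023 and 98.2 in A2100, against 29.3 to 116 CPM (median 61.3) in the 34 others, with A2100 the only one inside the range of the others (1.88 ± 0.26 SE, adjusted p = 1.26e-06). ACACB, the mitochondrial acetyl-CoA carboxylase, was at 453 CPM in A2099, 347 in A2052, 802 in A2023 and 554 in A2100, against 150.3 to 373 CPM (median 237) in the 34 others (0.98 ± 0.14 SE, adjusted p = 3.07e-06).

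The transcription factors FOXO1 and FOXO3 rose as well, but not in every calf. FOXO3 was at 49.9 CPM in A2099, 35.3 in A2052, 4.27 in A2023 and 8.86 in A2100. The range of the others was 3.35 to 11.2 CPM (median 7.54). A2099 and A2052 were above all others, A2100 was inside the range and A2023 was near its lower end (1.72 ± 0.31 SE, adjusted p = 5.63e-05). FOXO1 was at 47.0 CPM in A2099, 73.7 in A2052, 17.1 in A2023 and 33.1 in A2100, against 3.26 to 35.8 CPM (median 8.02) in the 34 others, with the same calves above all others (1.93 ± 0.45 SE, adjusted p = 0.00119). The 6 genes that fell were PPP1R3C, a glycogen-targeting subunit of protein phosphatase 1 (-2.41, all 4 calves below every other), PPARGC1A, the coactivator of mitochondrial biogenesis (-0.99), the AMPK subunits PRKAA2 (-0.85) and PRKAB2 (-0.77), NOCT (-0.81) and FOXO6 (-0.66). Without A2052 the list held 13 genes that rose and 2 that fell, and within TR2 11 and 4.

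The working description of the class as catabolic held only in part for the muscle ubiquitin ligases. FBXO32 (atrogin-1) was at 92.6 CPM in A2099, 159 in A2052, 0.869 in A2023 and 9.97 in A2100. Elsewhere it was at 1.08 to 39.9 CPM (median 6.49). A2099 and A2052 were above all other calves, A2100 was near the median and A2023 was the lowest of all 38 (2.54 ± 0.60 SE, adjusted p = 0.00136, and 1.08 with adjusted p = 0.352 without A2052 and 1.93 with adjusted p = 0.0746 without A2099). Over all alternatives the adjusted p of FBXO32 ran from 3.99e-05 to 0.352. TRIM63 (MuRF1) was at 181 CPM in A2099, 1148 in A2052, 181 in A2023 and 225 in A2100, against 41.4 to 223 CPM (median 110.1) in the 34 others, so that A2052 was far above the rest, A2100 just above the highest other calf and the remaining pair inside the range (1.74 ± 0.30 SE, adjusted p = 4.28e-05, and 0.72 with adjusted p = 0.101 without A2052, and from 2.07e-07 to 0.101 over all alternatives). For that reason the class is named here by its NAMPT level. NEDD4L, a ubiquitin ligase of membrane proteins, was at 295 CPM in A2099, 358 in A2052, 67.4 in A2023 and 42 in A2100, against 19.2 to 38.7 CPM (median 25.7) in the 34 others, with no overlap (2.80 ± 0.25 SE, adjusted p = 1.61e-09). In all, 14 of 29 genes of protein breakdown rose and 4 fell (median 0.35), among them the proteasome subunit PSMB2 (0.76) and the proteasome activator PSME4 (1.01). MSTN (myostatin), an inhibitor of muscle growth that the list held beside the ligases, was at 10.5 CPM in A2099, 0.158 in A2052, 4.03 in A2023 and 1.83 in A2100, against 3.73 to 30.2 CPM (median 14.4) in the 34 others and fell (-2.36 ± 0.58 SE, adjusted p = 0.00211), as did the muscle calpain CAPN3 (-0.79). Without A2052, 8 rose and 3 fell, and within TR2 7 and 2.

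Autophagy and lysosome genes rose in 13 of 21 cases and fell in 2 (median 0.64). GABARAPL1, which coats the autophagosome, was at 81.9 CPM in A2099, 378 in A2052, 53.8 in A2023 and 89.5 in A2100. Other calves were at 12.4 to 83.1 CPM (median 22.5). A2052 was far above all others and A2023 and A2099 lay inside the range of the others (2.24 ± 0.37 SE, adjusted p = 1.78e-05, and 1.12 with adjusted p = 0.0553 without A2052, and from 2.48e-07 to 0.0553 over all alternatives). ULK1, the kinase that starts autophagy, was at 223 CPM in A2099, 203 in A2052, 97.0 in A2023 and 95.6 in A2100, against 34.8 to 119 CPM (median 66.6) in the 34 others, high in A2099 and A2052 (1.14 ± 0.19 SE, adjusted p = 1.74e-05). The mitophagy receptor BNIP3 (1.10), the receptor of ER turnover RETREG1 (1.54) and the cathepsins CTSK (1.13, and 0.71 with adjusted p = 0.0304 without A2052) and CTSF (1.28) rose too, but not in every calf. For CTSK only A2052 (85.7 CPM) exceeded the other calves (at most 35.6 CPM), and A2099 and A2023 were below their median. RETREG1 and CTSF were above all others in A2099 and A2052 alone and below the median in A2023. In turn, TP53INP2 (-1.68) and PINK1 (-0.60) fell. Without A2052 the counts dropped to 6 and 2 and the median to 0.32, and within TR2 they were 5 and 1 (median 0.38).

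**Figure D3:**
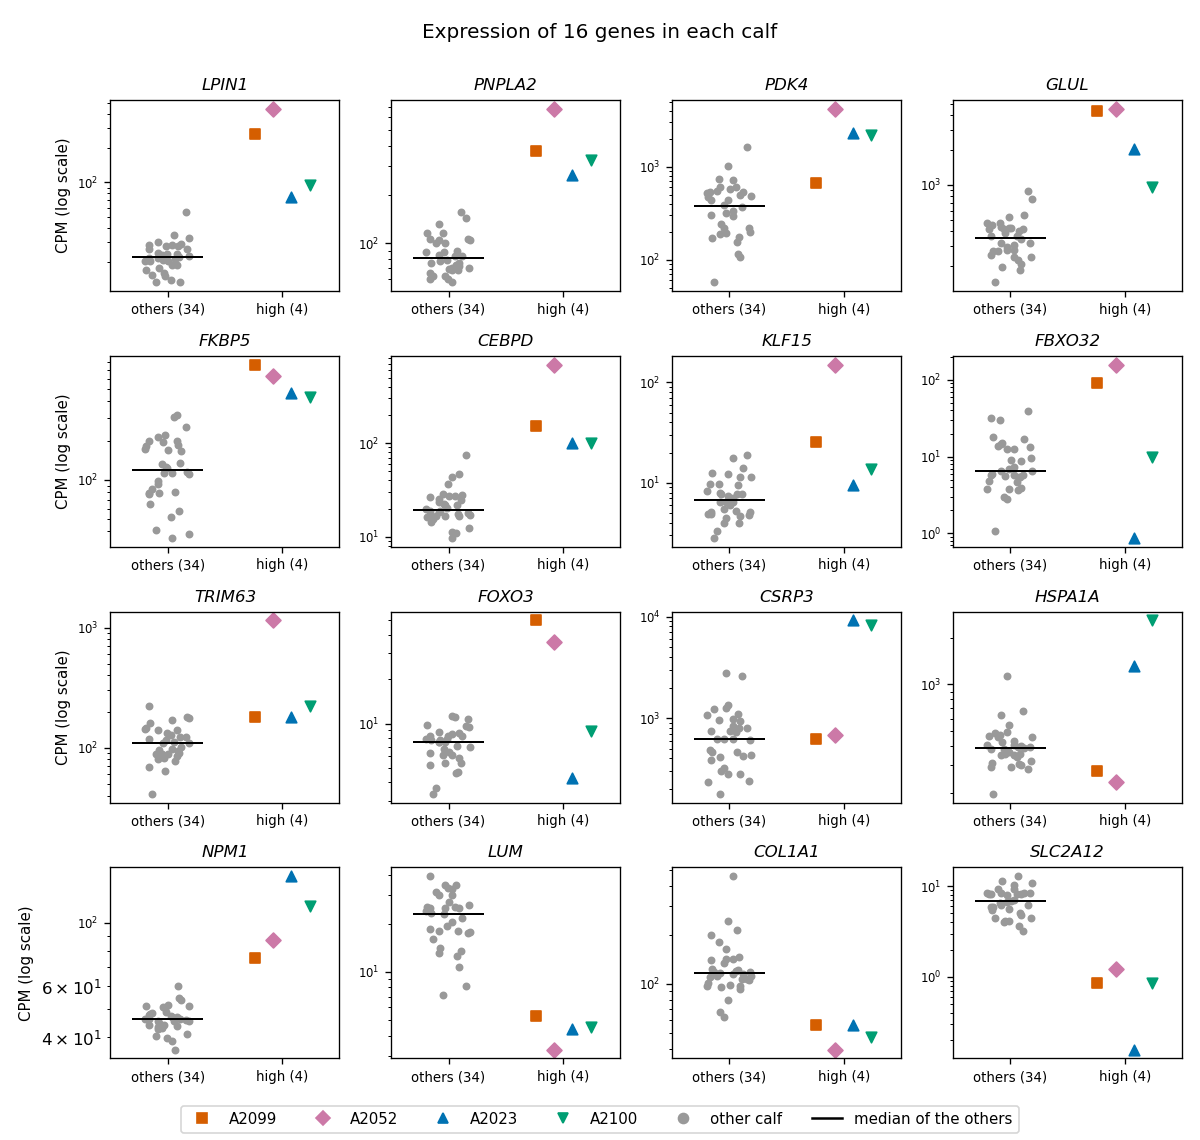
CPM (log scale) of 16 genes in each of 38 calves, with the 34 others in grey (bar, median) and the 4 high-NAMPT calves as coloured symbols. LPIN1, PNPLA2, GLUL, FKBP5, CEBPD and NPM1 are above every other calf in all 4, and LUM, COL1A1 and SLC2A12 below. FBXO32 and FOXO3 are high in A2099 and A2052, CSRP3 and HSPA1A in A2023 and A2100.

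The 4 calves were not alike among themselves. The first principal component of all genes but NAMPT (17.9% of the variance) held the 4 of them at its upper end, from 36.1 in A2099 to 78.9 in A2052 where the other calves reached 23.4. The second component (10.0%) placed A2099 (27.4) and A2052 (46.5) on one side and A2023 (-46.1) and A2100 (-31.0) on the other. The following pairing was seen in the values and is given as a description with no test. A2099 and A2052 together held the highest levels of all 38 calves for 761 of 12963 genes (5.87%) and the lowest for 544 (4.2%), and A2023 and A2100 did so for 824 (6.36%) and 532 (4.1%). For the other 4 pairs within the class, highest and lowest together came to 204 to 762 genes. A2099, A2023 and A2100 are TR2 calves and A2052 is a TR1 calf, so the pairs do not follow the treatment group.

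A2099 and A2052 shared high levels of FoxO and glucocorticoid genes. Against the 5.87% of all genes for which they held the highest levels, they did so for 10 of 22 glucocorticoid genes (FKBP5, KLF15, ZBTB16, CEBPD, CEBPB, GLUL, HIF3A, SESN1, TXNIP and PER2). They also did so for 10 of 32 fasting genes (FOXO1, FOXO3, FOXO4 and IRS2 among them), 9 of 29 breakdown genes and 8 of 21 autophagy genes. In the same 4 lists A2023 and A2100 held 1, 4, 4 and 1. List members all have a symbol, and genes with a symbol were called more often than all genes (44.9% against 32.9%). The shares of the pairs over genes with a symbol are not given here, so the shares of all genes may be too low a baseline. ZFAND5, a proteasome-binding protein induced in wasting muscle, was at 855 CPM in A2099, 1377 in A2052, 144 in A2023 and 211 in A2100. The 34 others ranged over 88.3 to 315 CPM (median 188). A2023 and A2100 lay inside the range of the others (1.78 ± 0.29 SE, adjusted p = 1.69e-05). IRS2, the insulin receptor substrate that FoxO factors induce, was at 21.0 CPM in A2099, 40.4 in A2052, 2.45 in A2023 and 7.28 in A2100, against 0.598 to 11.0 CPM (median 3.01) in the 34 others, with the same pair above all others.

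A2023 and A2100 held the highest levels for 9 of 22 immediate early and heat shock genes and 11 of 29 ribosome genes, against 6.36% of all genes, where A2099 and A2052 held 0 and 0. Single muscle genes, of which XIRP1 and FLNC belong to no list and were picked after their values were seen, had the same pair on top. CSRP3 (muscle LIM protein), a stretch sensor at the Z-disc, was at 624 CPM in A2099, 676 in A2052, 9195 in A2023 and 8315 in A2100. Outside the class, values were 179 to 2764 CPM (median 625). A2023 and A2100 were more than 3 times as high as the highest other calf, and A2099 and A2052 were close to the median (2.56 ± 0.66 SE, adjusted p = 0.00318). XIRP1, an actin-binding protein of muscle repair, was at 255 CPM in A2099, 285 in A2052, 1200.3 in A2023 and 1293 in A2100, against 39.0 to 243 CPM (median 90.5) in the 34 others, above all others in each calf but highest in that pair (2.83 ± 0.34 SE, adjusted p = 1.57e-07). FLNC (filamin C) was at 1889 CPM in A2099, 1437 in A2052, 6009 in A2023 and 6056 in A2100, against 1041 to 2798 CPM (median 1537) in the 34 others (1.21 ± 0.26 SE, adjusted p = 0.000545), and CRYAB (alpha B-crystallin), the small chaperone of desmin and filamin, at 402 CPM in A2099, 249 in A2052, 6656 in A2023 and 8407 in A2100. The range of the others was 499 to 3633 CPM (median 969.5). For CRYAB the 2 other calves were below the whole range of the others (1.82 ± 0.68 SE, adjusted p = 0.0373, a call lost without A2100).

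**Figure D4:**
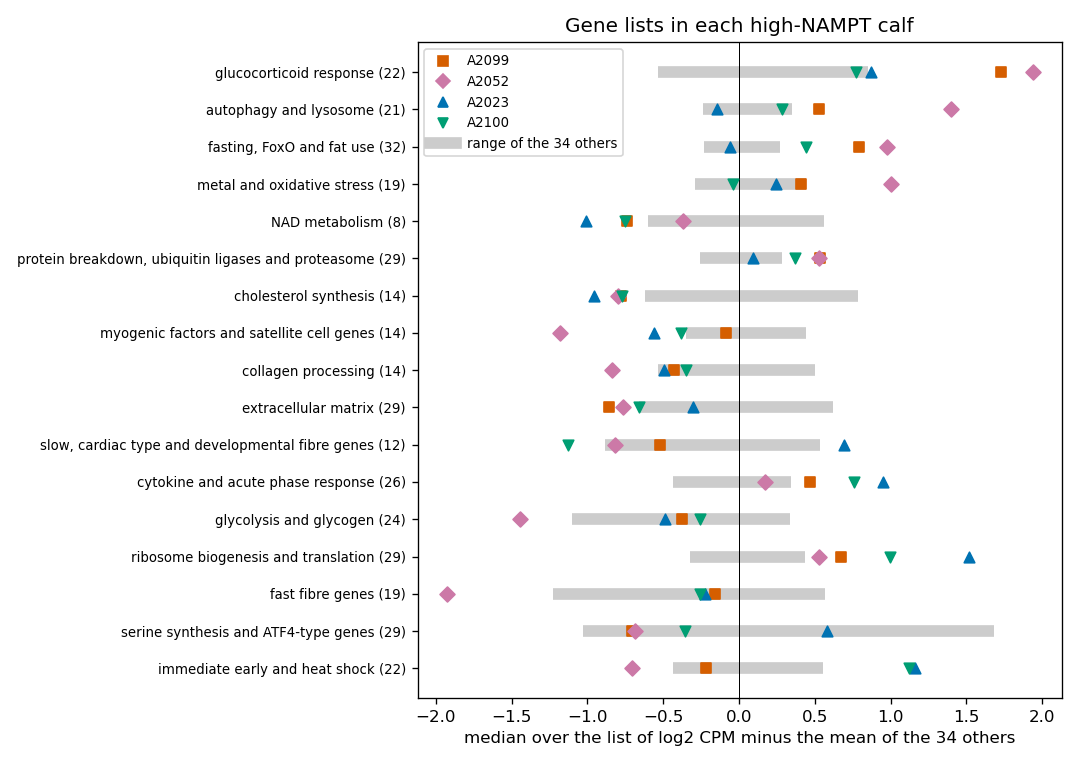
Median over each of 17 gene lists (number of genes in brackets) of log2 CPM minus the mean of the 34 others, for each high-NAMPT calf, with the range of the same median over the 34 others as a grey bar. A2099 and A2052 are furthest right for glucocorticoid (1.73 and 1.94) and fasting genes (0.79 and 0.98), A2023 and A2100 for heat shock genes (1.16 and 1.12), and all 4 are right of the grey bar for ribosome genes and left of it for cholesterol synthesis.

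Heat shock and immediate early genes rose in 8 of 22 cases and fell in 1 (median 0.50), and these counts depended on single calves. Without A2100 1 rose and 2 fell (median 0.20), and without A2023 3 rose and 1 fell (median 0.24). HSP90AB1, the constitutive HSP90 that also folds the glucocorticoid receptor, was at 882 CPM in A2099, 1208 in A2052, 1413 in A2023 and 1307 in A2100, against 335 to 759 CPM (median 477) in the 34 others, with no overlap (1.27 ± 0.16 SE, adjusted p = 2.05e-07). HSPA1A, an inducible HSP70 gene that can share reads with near-identical copies, was at 275 CPM in A2099, 235 in A2052, 1322 in A2023 and 2601 in A2100. Elsewhere it was at 196 to 1141 CPM (median 389). A2023 and A2100 were above all others, while A2099 and A2052 lay in the lower part of the range (1.17 ± 0.38 SE, adjusted p = 0.0169, and 0.28 with adjusted p = 0.622 without A2100). Its adjusted p ran from 0.000156 to 0.911 over all alternatives. The co-chaperone HSPH1 was at 40.7 CPM in A2099, 12.3 in A2052, 207 in A2023 and 191 in A2100, against 13.8 to 105 CPM (median 43.3) in the 34 others, with the same pair above all others and A2052 below them (1.35 ± 0.43 SE, adjusted p = 0.0153, a call lost without A2023 and without A2100). EGR3, an early response gene, fell (-2.11 ± 0.48 SE, adjusted p = 0.000964), and FOS (0.60, adjusted p = 0.605), JUN (0.025, adjusted p = 0.961) and EGR1 (-0.45, adjusted p = 0.657) were not called.

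Ribosome biogenesis and translation was the list with most calls: 26 of 29 genes rose and 0 fell (median 0.90), and the list's median was above the whole range of the 34 others (-0.32 to 0.44) in all 4 calves, from 0.53 in A2052 to 1.52 in A2023. NPM1 (nucleophosmin), a nucleolar chaperone of ribosome assembly, was at 75.3 CPM in A2099, 86.9 in A2052, 145 in A2023 and 115 in A2100, against 36.1 to 60.1 CPM (median 46.1) in the 34 others, with no overlap (1.14 ± 0.11 SE, adjusted p = 3.10e-09). POLR1E, a subunit of the polymerase that makes ribosomal RNA, was at 19.2 CPM in A2099, 19.8 in A2052, 25.4 in A2023 and 15.2 in A2100, against 4.82 to 11.3 CPM (median 7.95) in the 34 others (1.32 ± 0.15 SE, adjusted p = 6.20e-08). PES1, needed to mature the large subunit, was at 42.8 CPM in A2099, 71.1 in A2052, 99.9 in A2023 and 69.6 in A2100, against 18.5 to 44.9 CPM (median 26.3) in the 34 others (1.41 ± 0.16 SE, adjusted p = 6.79e-08). EIF3D, an initiation factor subunit that binds the cap, was at 162 CPM in A2099, 222 in A2052, 252 in A2023 and 209.6 in A2100, against 79.8 to 145 CPM (median 99.5) in the 34 others, above every other calf (1.01 ± 0.12 SE, adjusted p = 1.39e-07). MYC, which drives ribosome synthesis, also rose (0.94, adjusted p = 0.0109), but not in every calf. A2052 (141 CPM) and A2023 (97.8 CPM) exceeded the 34 others (at most 90.5 CPM, median 45.0). A2099 (60.8 CPM) and A2100 (52.9 CPM) did not. Counts were 23 and 0 without A2052, 20 and 0 without A2023 and 20 and 0 within TR2, and with the TR2 calves left out, where A2052 is the only calf of the class, 10 rose and 2 fell.

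Cytokine and acute phase genes rose in 9 of 26 cases and fell in 1 (median 0.75). HP (haptoglobin), the main acute phase protein of cattle, was low in all calves, at 7.21 CPM in A2099, 1.95 in A2052, 4.35 in A2023 and 4.10 in A2100, against 0.0653 to 1.70 CPM (median 0.617) in the 34 others, with no overlap (2.61 ± 0.40 SE, adjusted p = 6.33e-06). IL6R, the interleukin 6 receptor, was at 72.2 CPM in A2099, 189 in A2052, 48.2 in A2023 and 28.4 in A2100, against 10.1 to 42.3 CPM (median 14.6) in the 34 others (2.36 ± 0.29 SE, adjusted p = 2.04e-07), and RELA, a subunit of NF-kappaB, at 25.7 CPM in A2099, 46.2 in A2052, 34.3 in A2023 and 36.2 in A2100, against 15.4 to 29.6 CPM (median 19.0) in the 34 others (0.88 ± 0.13 SE, adjusted p = 4.14e-06). TNFRSF12A, the receptor of the cytokine TWEAK in muscle, was at 21.8 CPM in A2099, 35.8 in A2052, 355 in A2023 and 270.2 in A2100, against 4.35 to 158 CPM (median 33.3) in the 34 others, high in A2023 and A2100 alone (2.07 ± 0.70 SE, adjusted p = 0.0208). STEAP3, an iron reductase, was the gene that fell (-1.86). Beside these, the 4 neutrophil markers gave 0 calls by edgeR (2 genes, S100A9 and LTF, had an unadjusted p under 0.05), but 3 of them had a positive log2 fold change and their median was 1.03, above that of the cytokine list. Their summed level was 3.21 to 14.9 CPM in the class against 0.982 to 10.2 CPM in the others. A2023 was highest for both lists, with a list median of 2.15 for the neutrophil markers (others up to 1.26) and 0.95 for the cytokine list (others up to 0.34), and S100A9 stands in both. Their part in the result was not tested. Without A2023 the list held 6 genes that rose and 1 that fell.

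Contractile genes were lower in part, and mainly in A2052. Of 19 fast fibre genes 7 fell and 0 rose (median -0.65), but without A2052 1 fell (median -0.28), and with DESeq2 11 fell. The median of the list was -1.93 in A2052, below the range of the others (-1.23 to 0.57), and -0.15, -0.23 and -0.26 in A2099, A2023 and A2100. MYOZ3, a Z-disc protein of fast fibres, was at 77.9 CPM in A2099, 25.6 in A2052, 32.6 in A2023 and 99.8 in A2100. Other calves were at 71.9 to 391 CPM (median 216). A2052 and A2023 were below every other calf and A2099 and A2100 near the lower end (-1.97 ± 0.37 SE, adjusted p = 0.000112, and -1.72 with adjusted p = 0.00393 without A2052). PGAM2, the muscle phosphoglycerate mutase, was at 1254 CPM in A2099, 181 in A2052, 1163 in A2023 and 1605 in A2100, against 697 to 2897 CPM (median 2102.3) in the 34 others (-1.22 ± 0.34 SE, adjusted p = 0.00517, and -0.65 with adjusted p = 0.11 without A2052). CASQ1, the fast calsequestrin, was at 2622 CPM in A2099, 595 in A2052, 2358 in A2023 and 2293 in A2100, against 1929 to 4755 CPM (median 3273) in the 34 others (-0.93 ± 0.28 SE, adjusted p = 0.0101, and -0.49 with adjusted p = 0.209 without A2052). Over all alternatives the adjusted p ran from 2.58e-08 to 0.0118 for MYOZ3, from 0.000134 to 0.11 for PGAM2 and from 0.00139 to 0.209 for CASQ1. STAC3, a part of the calcium release machinery, fell by 0.55 on the log2 scale, also a call lost without A2052.

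Myosin heavy chains were not called in the reported edgeR fit. MYH1, the fast type IIx chain, was at 30412 CPM in A2099, 1274 in A2052, 11048 in A2023 and 17651 in A2100. The 34 others ranged over 615 to 38520.3 CPM (median 17437). A2099 was in the upper part of the range and A2052 among the lowest (-0.62 ± 0.78 SE, adjusted p = 0.581, and 0.050 with adjusted p = 0.975 without A2052, and from 0.175 to 0.975 over all alternatives). MYH2, the type IIa chain, was at 13779 CPM in A2099, 8404 in A2052, 9158 in A2023 and 10876 in A2100, against 8711 to 27313 CPM (median 16569) in the 34 others, in the lower part of the range or just below it (-0.67 ± 0.28 SE, adjusted p = 0.0619). The developmental chains MYH3 (-1.24 ± 1.08 SE, adjusted p = 0.4) and MYH8 (0.80 ± 0.85 SE, adjusted p = 0.501) were spread widely, and MYH8 reached 129.6 CPM in A2023 where the other calves ended at 50.4 CPM. Of 12 slow, cardiac type and developmental genes, CSRP3 rose and CASQ2 (-2.06) and MYBPHL (-0.99, a call lost without A2052 and without A2023) fell, and the slow light chain MYL3 was not called (-0.69 ± 0.33 SE, adjusted p = 0.103). The call for CSRP3 was lost at a threshold of 300 CPM and with log2 NAMPT as a linear term.

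Myogenic factors and satellite cell genes rose in 2 of 14 cases and fell in 5 (median -0.56). CDH15 (M-cadherin), which joins satellite cells to fibres, was at 37.3 CPM in A2099, 52.6 in A2052, 71.2 in A2023 and 43.0 in A2100, against 13.4 to 28.6 CPM (median 18.6) in the 34 others, above every other calf (1.51 ± 0.16 SE, adjusted p = 8.74e-09). EYA1, a transcriptional coactivator in muscle precursors, was at 3.89 CPM in A2099, 5.58 in A2052, 4.42 in A2023 and 5.38 in A2100, against 7.24 to 19.2 CPM (median 11.1) in the 34 others, below every other calf in all 4 (-1.25 ± 0.20 SE, adjusted p = 1.10e-05). PAX7, the marker of satellite cells (-0.81), MEF2C (-0.66), MEGF10 (-1.18, a call lost without A2052) and CHRNE, the adult acetylcholine receptor subunit (-1.42), fell as well, and MYF6 rose (0.54). MYOD1 (-0.58 ± 0.47 SE, adjusted p = 0.361) and MYOG (-0.55 ± 0.38 SE, adjusted p = 0.279) were not called. Without A2052 1 rose and 2 fell (median -0.30).

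Part of the matrix genes fell in the class. Of 29 listed genes 11 fell (37.9%, against 23.1% of all genes with a symbol) and 1 rose (median -0.62). For 4 of the 29, LUM, FN1, OGN and COL1A1, all 4 calves were below every other calf. The median of the list was -0.86 in A2099 and -0.76 in A2052, below the range of the others (-0.66 to 0.62). It was inside that range in A2023 (-0.30) and at its lower end in A2100 (-0.66). LUM (lumican), a proteoglycan that spaces collagen fibrils, was at 5.33 CPM in A2099, 3.27 in A2052, 4.42 in A2023 and 4.52 in A2100, against 7.18 to 39.5 CPM (median 23.0) in the 34 others, with A2052 the lowest (-2.03 ± 0.35 SE, adjusted p = 3.29e-05). FN1 (fibronectin) was at 8.07 CPM in A2099, 9.22 in A2052, 5.53 in A2023 and 10.7 in A2100, against 13.6 to 40.2 CPM (median 22.2) in the 34 others (-1.20 ± 0.23 SE, adjusted p = 0.00016). COL1A1, the main chain of type I collagen, was at 55.6 CPM in A2099, 39.4 in A2052, 55.9 in A2023 and 47.3 in A2100, against 62.8 to 457 CPM (median 116) in the 34 others (-1.16 ± 0.33 SE, adjusted p = 0.00622, and -0.72 with adjusted p = 0.12 without A2052). COL1A2 (-1.09 ± 0.30 SE, adjusted p = 0.00522) and COL3A1 (-0.79 ± 0.22 SE, adjusted p = 0.00685) fell beside it, with -0.64 with adjusted p = 0.117 and -0.60 with adjusted p = 0.0979 without A2052. Over all alternatives the adjusted p ran from 0.000475 to 0.12 for COL1A1, from 0.000279 to 0.117 for COL1A2 and from 0.000502 to 0.0979 for COL3A1. The basement membrane chains COL4A1 (-0.080, adjusted p = 0.752) and COL4A2 (-0.026, adjusted p = 0.917) were not called, and THBS1 (thrombospondin 1) rose (1.63). Without A2052 5 fell and 1 rose (median -0.31), and within TR2 6 and 1 (median -0.44).

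Collagen processing split in both directions, with 4 of 14 genes higher and 5 lower (median -0.46). These shares (28.6% and 35.7%) were not far from those of all genes with a symbol (21.8% and 23.1%). The collagen chaperone FKBP10 (-1.61), the procollagen proteinase BMP1 (-1.07) and its enhancer PCOLCE (-0.82) fell. P4HA3, a prolyl hydroxylase, was at 12.3 CPM in A2099, 13.3 in A2052, 34.5 in A2023 and 11.8 in A2100, against 0.372 to 7.92 CPM (median 2.84) in the 34 others, above every other calf (2.29 ± 0.51 SE, adjusted p = 0.000815), and P4HA2 (0.93) and the collagen-cleaving CTSK rose. Without A2052 3 were higher and 4 lower with a median of -0.11, and within TR2 2 were higher and 2 lower (median -0.18).

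Markers of other cells in the biopsy moved beside these genes. The summed level of 8 fibroblast markers was 234 to 376 CPM in the class against 374 to 1258 CPM in the others, and the 4 that fell are matrix genes (LUM, COL1A1, COL1A2 and COL3A1), whereas PDGFRA (-0.18), DPT (-0.44), THY1 (-0.12) and TWIST1 (-0.11) were not called. Of 15 leukocyte markers 6 fell (40%, against 23.1% of all genes with a symbol) and 0 rose. Their summed level was 30.8 to 151 CPM against 83.5 to 376 CPM (median 153) in the others. The median of the leukocyte markers was below the range of the others (-0.53 to 1.00) in A2052 (-0.91), A2023 (-1.41) and A2100 (-1.05). It lay inside that range in A2099 (-0.08). MRC1, a receptor of resident macrophages, was at 23.3 CPM in A2099, 4.85 in A2052, 2.84 in A2023 and 0.978 in A2100, against 6.66 to 71.9 CPM (median 23.3) in the 34 others, low in 3 calves and at the median in A2099 (-1.98 ± 0.56 SE, adjusted p = 0.0061). PTPRC (CD45), which defines leukocytes, was at 0.865 CPM in A2099, 0.474 in A2052, 0.316 in A2023 and 0.5502 in A2100, against 0.281 to 3.29 CPM (median 1.17) in the 34 others (-1.37 ± 0.49 SE, adjusted p = 0.0277), and CD8A was listed at 0 in A2099 and A2023. Calls were 2 of 7 for adipocyte markers, both higher (LIPE and AGPAT2), 2 of 7 for endothelial markers, both higher, and 0 for red blood cell (4 genes), smooth muscle (6) and Schwann cell markers (6). The adipocyte and endothelial shares (28.6% each) were near the 21.8% of all genes with a symbol that were higher. Of 8 skeletal muscle markers 4 fell and DES (desmin) rose (0.64). The median of these markers was -1.88 in A2052, below the range of the others (-0.85 to 0.44). It lay inside that range in A2099 (-0.18), A2023 (-0.15) and A2100 (-0.31). The part of these cells in the results on matrix and cytokine genes was not tested.

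Glucose use and sterol synthesis were the other lists with mostly lower genes. Of 24 genes of glycolysis and glycogen, 14 fell and 1 rose (median -0.76). Per calf, the median of this list was -1.44 in A2052, below the range of the others (-1.10 to 0.34). It lay inside that range in A2099 (-0.38), A2023 (-0.49) and A2100 (-0.25). SLC2A12, an insulin-responsive glucose transporter, was at 0.865 CPM in A2099, 1.21 in A2052, 0.158 in A2023 and 0.856 in A2100, against 3.18 to 12.8 CPM (median 6.77) in the 34 others, below every other calf by a wide margin (-3.22 ± 0.39 SE, adjusted p = 1.29e-07). PFKFB2 (-1.51), PGK1 (-1.34), GPI (-1.32), LDHA (-1.21) and PKM (-0.81) fell too, while SLC2A1, the basal glucose transporter, rose (1.47 ± 0.26 SE, adjusted p = 6.92e-05) and SLC2A4, the insulin-regulated one of muscle, was not called (-0.34 ± 0.19 SE, adjusted p = 0.176). Without A2052 5 fell and 1 rose (median -0.44), and within TR2 8 and 1 (median -0.49).

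Cholesterol synthesis genes fell in 9 of 14 cases and rose in 0 (median -0.80), and the median of the list was below the whole range of the others in each of the 4 calves (-0.77 to -0.95 against -0.62 to 0.78). EBP, a sterol isomerase, was at 4.398 CPM in A2099, 2.69 in A2052, 3.87 in A2023 and 4.77 in A2100, against 6.12 to 15.5 CPM (median 10.6) in the 34 others, with no overlap (-1.43 ± 0.20 SE, adjusted p = 1.27e-06). FDPS, which makes farnesyl diphosphate, was at 11.0 CPM in A2099, 16.7 in A2052, 13.5 in A2023 and 15.3 in A2100, against 18.4 to 40.9 CPM (median 26.3) in the 34 others, also below every other calf (-0.88 ± 0.15 SE, adjusted p = 2.63e-05). HMGCS1, an early enzyme of the pathway, also fell (-0.79), a call lost without A2052. Without A2052 4 fell (median -0.54), and within TR2 5 (median -0.69).

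Of 8 other genes of NAD metabolism tested, 0 rose and 2 fell (median -0.69), a share near that of all genes with a symbol that were lower (23.1%). Without A2023, with the TR2 calves left out and with no covariates 1 rose, and without A2052 1 fell. With DESeq2 0 rose and 4 fell. NMRK2, the muscle nicotinamide riboside kinase that feeds NAD by another route, was at 529 CPM in A2099, 54.9 in A2052, 435 in A2023 and 744 in A2100. Outside the class, values were 424 to 3901 CPM (median 1672). A2052 was far below the others and the rest near the lower end (-2.20 ± 0.58 SE, adjusted p = 0.00359, and -1.57 with adjusted p = 0.0408 without A2052, and from 2.91e-05 to 0.0408 over all alternatives). SIRT4, a mitochondrial sirtuin, was at 2.23 CPM in A2099, 2.16 in A2052, 2.53 in A2023 and 5.26 in A2100, against 2.55 to 7.60 CPM (median 5.16) in the 34 others, at the median in A2100 and below every other calf in the remaining 3 (-0.67 ± 0.24 SE, adjusted p = 0.0296). The call for SIRT4 was lost without A2052, without A2023 and without A2099.

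Metal and oxidative stress genes rose in 7 of 19 cases and fell in 4 (median 0.51). The share that rose was 36.8%, against 21.8% of all genes with a symbol. The share that fell (21.1%) was near the 23.1% of those genes. Without A2052 6 rose and 2 fell (median 0.33), and within TR2 4 rose and 0 fell. HMOX1, heme oxygenase, was at 25.6 CPM in A2099, 70.5 in A2052, 5.45 in A2023 and 10.3 in A2100, against 2.20 to 9.44 CPM (median 4.09) in the 34 others (2.46 ± 0.30 SE, adjusted p = 1.29e-07), FTL, the ferritin light chain, at 54.1 CPM in A2099, 162 in A2052, 99.5 in A2023 and 233 in A2100, against 26.4 to 86.5 CPM (median 40.3) in the 34 others (1.70 ± 0.24 SE, adjusted p = 2.16e-06), and the transferrin receptor TFRC fell (-1.86 ± 0.39 SE, adjusted p = 0.000462). SRXN1 (sulfiredoxin) rose (3.10 ± 0.46 SE, adjusted p = 3.80e-06), with A2100 the highest at 12.0 CPM. The secreted selenoproteins GPX3 (0.40 ± 0.32 SE, adjusted p = 0.351) and SELENOP (0.38 ± 0.18 SE, adjusted p = 0.111) were not called, and GPX1, the cytosolic glutathione peroxidase, fell (-0.62 ± 0.18 SE, adjusted p = 0.00721). The selenoprotein SELENOO was above every other calf (at most 70.1 CPM) in all 4, at 86.1 CPM in A2099, 112.7 in A2052, 72.8 in A2023 and 73.4 in A2100.

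Among serine synthesis and ATF4-type genes, 3 of 29 rose and 2 fell (median -0.06, and 0.18 without A2052). These shares (10.3% and 6.9%) were below those of all genes with a symbol (21.8% and 23.1%). With DESeq2 3 rose and 3 fell, and with no covariates 3 rose and 4 fell. PHGDH was at 4.83 CPM in A2099, 1.74 in A2052, 13.4 in A2023 and 4.77 in A2100, against 1.54 to 116 CPM (median 15.0) in the 34 others, and PSAT1 at 4.25 CPM in A2099, 1.21 in A2052, 6.24 in A2023 and 3.61 in A2100. The range of the others was 2.22 to 181 CPM (median 21.1). All 4 calves were below the median of the others for both genes, with A2052 below the whole range of the others for PSAT1. Neither was called in the reported edgeR fit (-1.51 ± 1.15 SE, adjusted p = 0.328 for PHGDH, -2.38 ± 1.04 SE, adjusted p = 0.0751 for PSAT1). LARS1, leucyl-tRNA synthetase, rose with no overlap (0.87 ± 0.11 SE, adjusted p = 1.39e-07), and the alanine transaminase GPT2 fell (-1.35 ± 0.37 SE, adjusted p = 0.00501), with A2023 (8.06 CPM) and A2100 (10.9 CPM) below every other calf.

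Over all genes with a symbol, the largest changes with a mean of at least 1 CPM were NPTX1, AMPD3, SCN3B, GREB1 and SLC27A6 on the higher side. SCN3B, a sodium channel beta subunit, was at 21.0 CPM in A2099, 34.9 in A2052, 60.5 in A2023 and 31.2 in A2100, against 0.196 to 12.2 CPM (median 2.51) in the 34 others, and GREB1, a gene first known as hormone-induced, at 11.8 CPM in A2099, 54.6 in A2052, 63.8 in A2023 and 43.5 in A2100. Elsewhere it was at 0.907 to 11.5 CPM (median 2.43). Neither overlapped the other calves (3.33 ± 0.47 SE, adjusted p = 2.08e-06 for SCN3B, 3.31 ± 0.43 SE, adjusted p = 5.54e-07 for GREB1). NPTX1, a secreted pentraxin, was at 10.7 CPM in A2099, 43.1 in A2052, 1.26 in A2023 and 0.734 in A2100, against 0 to 1.21 CPM (median 0.283) in the 34 others, and it reached the mean of 1 CPM only through the class, so its place among the largest changes is given with no test. SLC27A6, a fatty acid transport protein of muscle, was at 47.7 CPM in A2099, 134 in A2052, 0.553 in A2023 and 1.59 in A2100. Other calves were at 0.339 to 13.1 CPM (median 3.49). Both genes were high in A2099 and A2052, and SLC27A6 was inside the range of the others in A2023 and A2100 (3.22 ± 0.63 SE, adjusted p = 0.000174 for SLC27A6). The call for SLC27A6 was lost without A2052 and without A2099. On the lower side were METTL11B, DCSTAMP, MUC4, DKK2 and GRAMD2A. METTL11B, an N-terminal methyltransferase, was at 2.02 CPM in A2099, 0.158 in A2052, 0.553 in A2023 and 2.45 in A2100, against 0.55 to 36.0 CPM (median 19.9) in the 34 others (-3.98 ± 0.65 SE, adjusted p = 1.82e-05). DKK2, a secreted Wnt modulator, was at 1.30 CPM in A2099, 2.69 in A2052, 0.237 in A2023 and 1.83 in A2100, against 1.65 to 31.4 CPM (median 13.9) in the 34 others (-3.25 ± 0.56 SE, adjusted p = 4.21e-05), and MUC4 was below every other calf (-3.52 ± 0.44 SE, adjusted p = 2.59e-07). DCSTAMP, a gene of cell fusion, was listed at 0 in A2099 and A2052 (-3.78 ± 1.13 SE, adjusted p = 0.00954), a call lost without A2052.

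A2100 had the lowest NAMPT level of the class and lies nearest to the threshold, so its values were read over genes chosen without it. With A2100 left out of the fit, 1948 genes were higher and 1692 lower in the remaining 3 calves. A2100 was above the mean of the 34 others in 87.3% of the higher genes and below it in 87.9% of the lower ones. Its median shift was 0.46 over the higher genes and -0.54 over the lower (log2), a difference of 1.00, where the highest calf outside the class, A2090, reached 0.39. The 34 others had entered the choice of the genes as the comparison and their mean is the zero of the shift, so their values are held near 0 and the gap is in part fixed. The same difference was 1.24 in A2099, 1.92 in A2052 and 1.38 in A2023, which had entered the choice of the genes.

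**Figure D5:**
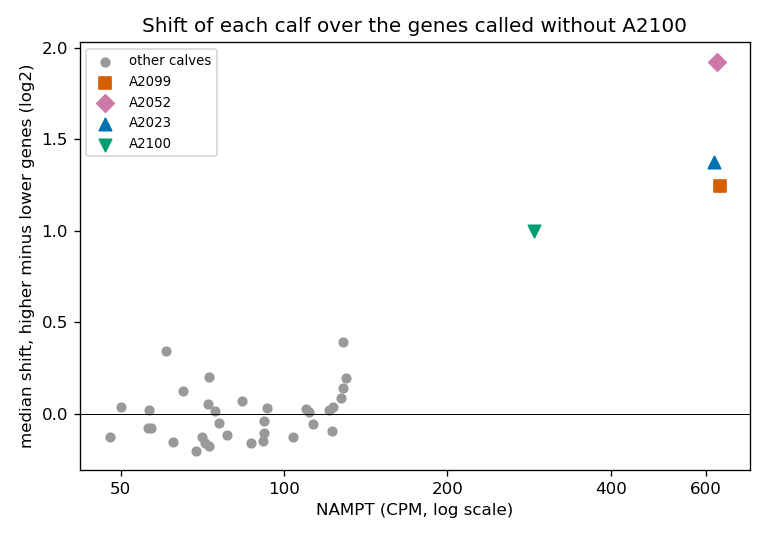
For each calf, the median log2 shift from the mean of the 34 others over 1948 higher genes minus that over 1692 lower genes (genes called with A2100 left out), against its NAMPT level (CPM, log scale). A2100, which did not enter the choice of genes, is at 1.00, and every grey calf is at 0.39 or less. The grey calves entered the choice of genes as the comparison, and their mean is the zero of the scale.

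Since 3 of the 4 calves had TR2 dams, the comparison of TR2 with CTR was also made with and without the class. This check was added after the class had been examined. With edgeR and no term for the class, 1080 of 12963 genes had an unadjusted p under 0.05 in TR2 against CTR. There were 339 with the class as a term and 462 with the 4 calves left out, and 0 genes were called at an adjusted p of 0.05 in each. For LPIN1 the log2 fold change of TR2 against CTR was 1.79 over all calves, 0.23 with the class as a term and 0.39 without the 4 calves. PNPLA2 went from 1.19 to 0.28 and 0.42, FKBP5 from 1.49 to 0.58 and 0.59, and ACACB from 0.84 to 0.46 and 0.41. These 4 genes are called between the classes, so a drop once the class is a term follows from that choice. In TR1 against CTR, 331 genes had an unadjusted p under 0.05 over all calves, 298 with the term and 313 without the 4 calves, and LPIN1 went from 1.38 to 0.39 and 0.19. TR3 held no calf of the class, and TR3 against CTR still gave 175, 243 and 339 genes in the same order. Leaving out the 4 calves also leaves fewer TR2 calves. The changes in the counts of TR2 against CTR therefore cannot be read as the part of the class alone. In these 3 comparisons the CTR calves are the same, and 0 genes were called in TR1 and TR3 too. Treatment group and class cannot be fully told apart with 0 such calves among 10 CTR and 9 TR3 calves.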

How the data were processed

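The authors made strand-specific poly-A libraries and, per the labels and the study's methods, trimmed the reads, aligned them with STAR 2.7.3a to ARS-UCD1.2 and deposited raw counts per Ensembl gene for 38 calves (27607 genes, 21038 with a count). Which strand column of STAR they took is not given in the sources used here. The calves are separate animals.

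From these counts, 12964 genes passed edgeR's filterByExpr. CPM used TMM-scaled library sizes. The class (NAMPT at 200 CPM or more, 4 calves) was tested with edgeR 4.0.16 quasi-likelihood F-tests on the model dam age, sex, treatment group and class over all 38 calves, with Benjamini-Hochberg adjustment at 0.05 over the 12963 genes other than NAMPT, and DESeq2 1.42.0 was run as an alternative. Standard errors were derived as |log2 fold change| over the square root of each gene's F statistic. The script was tested on simulated data. No pair of libraries differed by as little as counting noise (smallest chi-square per degree of freedom 16.98).

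The members and the gene lists were chosen with earlier results of these data known. Of 407 listed genes, 360 were matched to an ID through 2878 IDs the study's supplementary tables pair with symbols. Their fold changes and p-values were not used. Text genes are, per list, the 4 called members of smallest p, 22 always given (such as FKBP5, FBXO32 and MYH1), and the 5 largest changes each way at a mean of at least 1 CPM. Members and pair genes named beyond these were chosen after their values were seen. A few genes that this rule names are not reported here.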

Additional observations from a re-analysis of the deposited data

Results flagged for a closer look

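In 101 groups of values tried, 10 held a value far from the rest by Dixon's criterion. The groups were the 4 calves of the class for each gene named by rule, and the TMM factor and total count in each treatment group. For normal values in independent groups the criterion flags about 1 in 20. The CPM values here come from the same 4 calves for every gene and were not tested for normality, so the 10 are not read as an excess. A2052 stood apart for 6 of the 10. Within the 4 calves, A2052 was highest for CEBPD (688.5 CPM), BNIP3 (255.7 CPM), GABARAPL1 (378.2 CPM), KLF15 (151.0 CPM) and TRIM63 (1148 CPM), and lowest for CASQ1 (595.0 CPM).

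A2023 was far above the other 3 for P4HA3 (34.5 CPM), a prolyl hydroxylase, and for MYH8 (129.6 CPM), the perinatal myosin. A2100 was far above them for SIRT4 (5.26 CPM) and A2099 for PFKFB2 (5.48 CPM), which in both cases is the calf closest to the 34 others.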

How the results depend on the processing

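Over DESeq2, plain library sizes, no filter on low counts, other covariates, a robust fit, a threshold of 150 or 300 CPM and log2 NAMPT as a linear term, the counts of higher and lower genes stayed within 1.5 times the reported ones, from 1559 higher and 1440 lower at 300 CPM, which places A2100 among the others, to 3051 higher with library sizes. At 150 CPM the class was unchanged. Leaving out 1 calf of the class gave 1686 to 2186 higher, 1244 to 1921 lower and 2930 to 4107 genes in all, with the lowest counts without A2052, and 325 to 421 genes with the class above and 239 to 386 with it below every other calf, as fewer calves are asked to agree. TR2 calves alone gave 1102 higher, 803 lower and 1905 genes in all, from fewer samples. With TR2 left out, A2052 alone stood for the class, assumed to vary like the other calves, and 1317 genes were higher and 2728 called in all.

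Of 93 genes named by rule, 74 kept their direction and call without A2052, 17 lost the call and 2 changed sign. Without A2023, A2099 and A2100 the calls lost were 4, 3 and 2. Calls were gained by 2 genes with DESeq2, 2 with no covariates and 2 without A2023. Dam age as a factor and the linear term gave 1 each. Calls lost were 17 in TR2 calves alone, 18 with TR2 left out, 10 at 300 CPM and 8 with the linear term. With TR2 left out, CSRP3 (-0.38), SLC1A5 (-0.20), HSPH1 (-1.58), HSPA1A (-0.86) and MYH8 (-4.00) changed sign. HSPA1A did so at 300 CPM (-0.10), TSC22D3 (-0.0020) and MYH1 (0.032) within TR2, and MYH1 with the linear term (0.050). With 1 calf of the class left out, TSC22D3 ran from -0.047 (without A2052) to 0.25 (without A2023), MYH1 from -1.06 (without A2099) to 0.050 (without A2052) and MYH8 from -1.18 (without A2023) to 1.58 (without A2052). Among the lists, 300 CPM left 1 heat shock gene and 3 metal stress genes higher and 4 fast fibre genes lower, dam age as a factor left 4 heat shock genes higher, and with no covariates 16 cytokine genes were higher. With TR2 left out, where A2052 alone stands for the class, 4 cytokine genes were higher, 12 fast fibre genes lower, and 2 heat shock genes higher and 6 lower. The cause was not tested. The depth of 12921000 to 17472000 counts leaves genes under about 1 CPM, such as CD8A, resting on few reads. No paired analysis was possible because the labels give the calves no numbers shared between groups. Promoter letters were not searched, as no promoter sequences were to hand.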
